A study of Mus musculus with 15 samples.

Results

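Double mutant progenitors, which lack Dnmt3a and carry Idh2 R140Q, were compared with megakaryocyte-erythroid progenitors (MEP) that lack Dnmt3a alone, so that the contrast asks how DNA methylation differs when the Idh2 mutation is added to Dnmt3a loss. It rests on 5 of the 15 libraries of the series, 3 from double mutant cells and 2 from knockout MEP. All are reduced representation bisulfite libraries of mouse bone marrow on the C57BL/6 background. Bisulfite converts unmethylated cytosine, so a CpG's level is the percentage of its reads left unconverted, and the method samples mainly DNA rich in CpGs. The double mutant genotype was Mx1-cre+;Dnmt3a-/-;Idh2 R140Q, and these cells are described as malignant and were sorted as lineage-negative, cKit+, Sca1-, CD34- and Cd16/32-. The knockout genotype was Mx1-cre+;Dnmt3a-/-, and these were primary MEP from the same gate. Mx1-cre is switched on by interferon and acts in marrow and other tissues, and both groups carry it together with the Dnmt3a loss. The labels do not say how the Idh2 mutation was introduced, and they do not explain the GFP in the names of the knockout libraries. Idh2 mutant MEP (Mx1-cre-;Dnmt3af/f;Idh2 R140Q, 2 libraries) and wild type MEP (Mx1-cre+;Dnmt3af/f, 2 libraries) served to place the levels and to set the same mutation against intact Dnmt3a. The labels speak of biological replicates without stating separate animals, so the p-values may measure only the spread between these samples. The knockout cells were primary and the double mutant cells malignant, so the added mutation and the malignant state cannot be told apart here.

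Dnmt3a places methyl groups on previously unmethylated CpGs, and its loss in blood stem cells is a frequent early step in human leukaemia. Mutant Idh2 makes 2-hydroxyglutarate, which inhibits dioxygenases that depend on alpha-ketoglutarate, among them the Tet enzymes that oxidise methylated cytosine as a step towards its removal. CpG-rich promoters are mostly unmethylated in normal progenitors, while most CpGs elsewhere are methylated.

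On the 19 autosomes 325489 CpGs had 10 or more reads in each of the 5 libraries, and 241527 of these had as many in all 15. They were grouped into 38628 regions, which are 1 kb windows holding 3 or more of these CpGs, and into 12070 promoters, which hold those up to 1 kb from an annotated gene start. A region or promoter was called where a quasi-binomial model of methylated and unmethylated reads gave a Benjamini-Hochberg adjusted p under 0.05 and the group means differed by at least 10 percentage points, hereafter points.

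The regions that changed most are shown first as DNA, because most CpGs of these short stretches differed widely between the groups. These are the 4 largest rises and the 4 largest falls in which at most 200 bases hold at least 4 measured CpGs, read from the plus strand of mm9, with each measured CpG in capitals and all other bases, unmeasured CpGs included, in lower case. The rises lie near the start of Fitm1 (chr14:56195289-56195418), in coding sequence of Ptger1 (chr8:86192517-86192565), near the start of Gabra5 (chr7:64764632-64764789) and in coding sequence of Kcnk12 (chr17:88145594-88145772).
Fitm1: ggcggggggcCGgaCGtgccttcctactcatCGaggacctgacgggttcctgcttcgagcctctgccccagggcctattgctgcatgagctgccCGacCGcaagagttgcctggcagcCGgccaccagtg
Ptger1: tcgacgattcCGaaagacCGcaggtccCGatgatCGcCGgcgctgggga
Gabra5: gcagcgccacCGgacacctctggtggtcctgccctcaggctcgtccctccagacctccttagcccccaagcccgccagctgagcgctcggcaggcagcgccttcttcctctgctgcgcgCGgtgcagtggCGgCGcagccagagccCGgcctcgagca
Kcnk12: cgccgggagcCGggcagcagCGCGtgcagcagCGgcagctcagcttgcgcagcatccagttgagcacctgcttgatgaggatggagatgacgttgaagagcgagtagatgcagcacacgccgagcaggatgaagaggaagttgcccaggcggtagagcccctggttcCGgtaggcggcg
In these 4 stretches every measured CpG was higher in all 3 double mutant libraries than in both knockout libraries. The windows were chosen for large differences without overlap between the groups, so this largely follows from the choice. The group means of single CpGs in the Fitm1 stretch ran from 92.1% to 95.4% in double mutant cells and from 0% to 1.79% in knockout MEP. Those in the Ptger1 stretch ran from 75.1% to 100% in double mutant cells and from 0.909% to 18.5% in knockout MEP.
The falls lie in an intron of Itga2b (chr11:102329738-102329857), between genes near Fgf6 (chr6:126960404-126960538), across coding sequence of Kalrn (chr16:34049824-34050000) and in an intron of Fbxo31 (chr8:124094698-124094822).
Itga2b: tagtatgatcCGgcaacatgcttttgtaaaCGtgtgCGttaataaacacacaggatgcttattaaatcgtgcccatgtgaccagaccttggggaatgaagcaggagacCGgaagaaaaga
Fgf6: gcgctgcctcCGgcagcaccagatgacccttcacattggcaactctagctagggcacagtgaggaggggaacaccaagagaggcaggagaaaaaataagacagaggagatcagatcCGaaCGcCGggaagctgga
Kalrn: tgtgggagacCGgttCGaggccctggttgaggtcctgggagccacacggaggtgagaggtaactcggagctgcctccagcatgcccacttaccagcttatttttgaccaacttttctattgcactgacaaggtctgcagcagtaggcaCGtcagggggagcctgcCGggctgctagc
Fbxo31: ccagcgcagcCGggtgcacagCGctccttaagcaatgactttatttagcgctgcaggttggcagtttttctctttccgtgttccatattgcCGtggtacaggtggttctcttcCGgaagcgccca
In the Fbxo31 stretch the 4 CpGs had means of 0.952% to 3.34% in double mutant cells and of 39.9% to 75.4% in knockout MEP. In the Fgf6 stretch the change was not shared by all CpGs. Its first measured CpG held 90.3% in double mutant cells and 95.9% in knockout MEP, while the other 3, which sit close together, held 4.66% to 7.61% in double mutant cells and 79.2% to 90.9% in knockout MEP. In the Kalrn stretch the loss was graded, with means of 64.4%, 41.5%, 0.741% and 6.43% along the sequence in double mutant cells and of 96.4% to 100% in knockout MEP.

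The double mutant files held 28001420, 31657332 and 29884646 reads over cytosines, and the knockout MEP files 26086791 and 23452429. Median depth at the CpGs compared was 37 to 43 reads in double mutant libraries and 33 and 38 reads in knockout MEP. Reads at the targeted Dnmt3a gene did not check the deletion: in a 1 kb window of the gene they came to 0 to 0.145 per 1000000 reads in double mutant and to 0.427 and 1.73 in knockout MEP libraries, but Idh2 mutant MEP, with Dnmt3a intact by label, also had only 0 and 0.165, against 6.93 and 8.40 in wild type MEP. CpGs inside CCGG, the site cut in this assay, took 59.8% to 60.4% of autosomal reads in double mutant libraries, 49.1% and 56.1% in knockout MEP and 59.3% and 59.97% in wild type MEP. This difference in library makeup runs with the groups compared and cannot be told apart from them. Methylated reads on mitochondrial DNA, a rough measure of unconverted reads, were 0.912% to 1.56% in double mutant and 1.23% and 1.66% in knockout MEP libraries, so they overlapped.

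Double mutant cells were more methylated than knockout MEP, by 4.19 points at CpGs low in wild type MEP, by 5.73 points at those of intermediate level and by 0.995 points at those of high level. The mean over all CpGs was 42.8%, 43.5% and 42.3% in the double mutant libraries and 38.8% and 40.3% in the knockout MEP libraries. The groups did not overlap, and the difference of 3.32 points had p = 0.1 in an exact two-sided permutation test, the smallest p that 3 against 2 libraries can give. The CpGs were then split by their level in the 2 wild type MEP libraries, which are in neither group. At the 171597 CpGs below 20% in wild type MEP, the level was 5.75%, 6.79% and 5.79% in double mutant cells and 1.78% and 2.06% in knockout MEP. All 3 double mutant values lay far above the knockout, and also above Idh2 mutant MEP (2.81% and 2.60%) and wild type MEP (1.59% and 1.51%). At the 43633 CpGs from 20% to 80% the level was 63.8%, 65.0% and 62.1% in double mutant cells and 54.9% and 60.9% in knockout MEP. Here Idh2 mutant MEP (63.3% and 62.3%) lay within the double mutant range. At the 107320 CpGs above 80% the groups overlapped, with 93.8%, 93.9% and 92.9% in double mutant cells and 91.7% and 93.4% in knockout MEP (p = 0.3, exact permutation test, adjusted p = 0.30).

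By annotation, CpGs within 1 kb of a start site held 7.79%, 8.63% and 7.84% in double mutant cells and 4.44% and 4.88% in knockout MEP. Coding exons differed by 4.34 points, introns by 3.08 and intergenic CpGs by 2.84, from starting levels of 60.2%, 62.01% and 66.7% in knockout MEP. The groups did not overlap in any of the 6 annotation classes, each with p = 0.1 (exact permutation test, adjusted p = 0.11 over 9 classes). The gain at CpGs below 20% in wild type MEP was seen inside CCGG (7.82% in double mutant cells, 2.51% in knockout MEP) and at other CpGs (5.15% in double mutant cells, 1.58% in knockout MEP). Without knockout MEP replicate 1 the difference from 20% to 80% was 2.69 points rather than 5.73, that above 80% was 0.130 rather than 0.995, that of introns was 1.87 and that of intergenic CpGs was 1.67. Weighted by reads, the mean over all CpGs differed by 9.70 points, a value that the unequal CCGG shares enter.

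**Figure D1:**
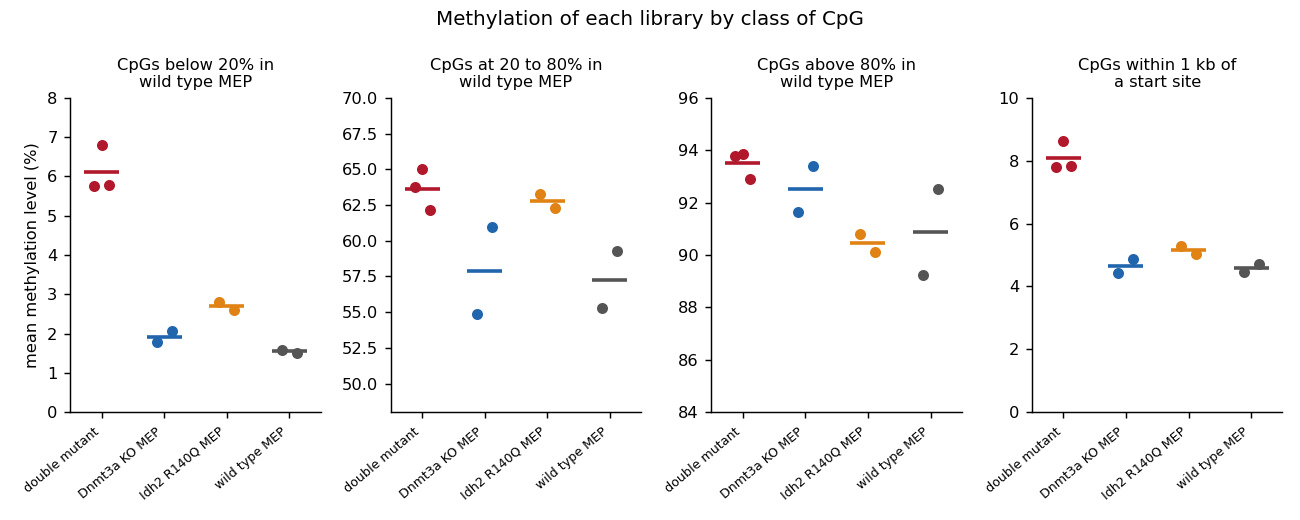
Mean methylation level in percent (vertical axes, each on its own range) of every MEP-gate library, for CpGs split by their wild type MEP level and for CpGs within 1 kb of a start site; points are libraries and bars are group means. The 3 double mutant libraries stand at 5.75% to 6.79% in the low class, above all other groups, and overlap knockout MEP in the class above 80%.

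Of the 38628 regions, 5045 were called (13.1%). In double mutant cells 4305 rose (11.1% of all regions) and 740 fell (1.92%), with median differences of 24.1 and -20.4 points, while the median over all regions was 0.43 points. The library values of the 2 groups did not overlap in 5036 of the called regions, against 41.0% of all regions. The rises started low and ended at partial levels. Over the 4305 risen regions the median level was 35.0%, 39.9% and 35.0% in the double mutant libraries and 5.02% and 6.85% in the knockout MEP libraries. In double mutant cells 2791 of them held 20% to 80% and 723 held over 80%. A level between 0 and 100% can be a share of cells or of alleles, which bulk libraries cannot tell apart. The falls were partial as well, with medians of 58.4%, 60.9% and 56.1% in double mutant cells and 83.6% and 84.2% in knockout MEP. Of the risen regions 4224 were also above their wild type MEP level, and of the fallen regions 685 were below it. The same double mutant mean had chosen these regions, so these counts are a description. The wild type MEP median was 7.52% at the rises and 75.7% at the falls. With limma 3751 regions rose (9.71%) and 504 fell (1.3%). The count was 2959 without knockout MEP replicate 1 (2540 rises and 419 falls), falls numbered 449 without its replicate 2, and fitted to the 5 libraries alone it was 2410 (2192 rises, 218 falls).

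**Figure D2:**
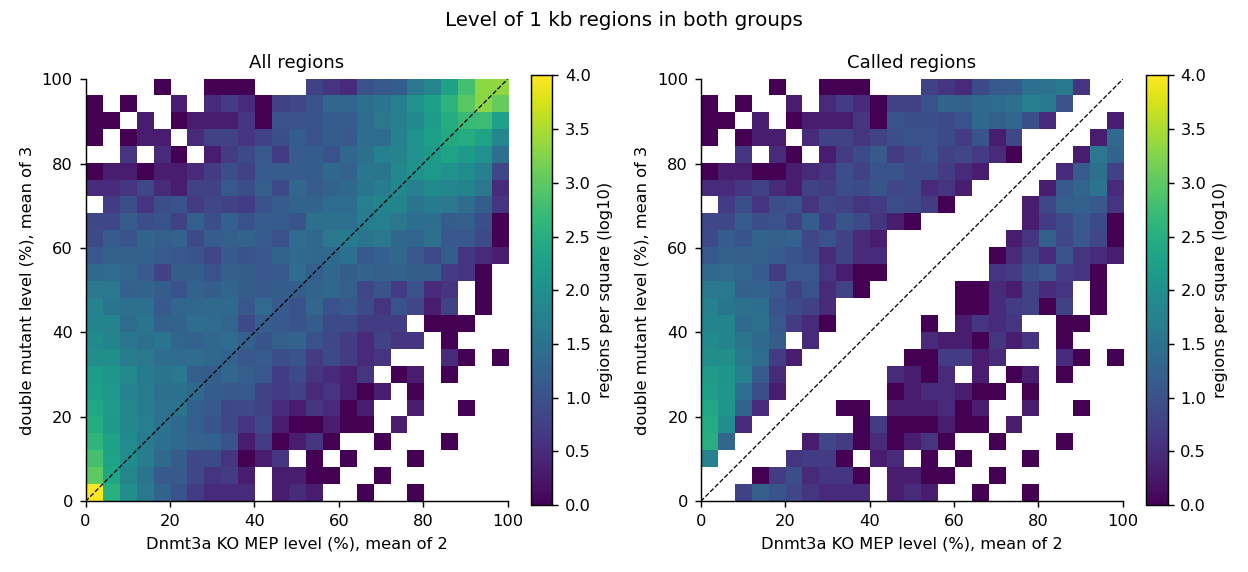
Level of each 1 kb region in knockout MEP (horizontal, mean of 2 libraries, percent) and in double mutant cells (vertical, mean of 3), for all 38628 regions and for the 5045 called ones; colour gives the number of regions per square on a log10 scale and the dashed line marks equal levels. Called regions crowd along the left edge, where knockout MEP is near 0 and double mutant cells range from 10% upward.

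The largest rises reached 73.6% to 93.2% in double mutant cells, against 0% to 15.5% in knockout MEP. Fitm1, which encodes a protein of fat storage in muscle, had 92.4%, 90.9% and 96.3% at its promoter in double mutant libraries and 0% and 1.71% in knockout MEP libraries (chr14:56195001-56196000, 6 CpGs). The groups were far apart, with a difference of 92.3 points (adjusted p = 4.69e-05). An intron of Gcnt2, the enzyme that branches blood group I chains, had 94.5%, 87.1% and 93.4% in double mutant and 6.45% and 0% in knockout MEP libraries (chr13:40958001-40959000, adjusted p = 3.45e-05). A coding exon of Ptger1, which encodes the EP1 receptor of prostaglandin E2, had 91.8%, 89.3% and 93.5% in double mutant and 9.77% and 4.71% in knockout MEP libraries (chr8:86192001-86193000, adjusted p = 0.000591). In wild type MEP this exon was uneven, at 28.1% and 70.2%. The promoter of Gabra5, a subunit of the GABA-A receptor, had 90.3%, 95.5% and 92.5% in double mutant and 13.3% and 9.50% in knockout MEP libraries (chr7:64764001-64765000, adjusted p = 5.90e-06). Nptx2 encodes a neuronal pentraxin, and its promoter window held 12 measured CpGs. It had 73.9%, 78.1% and 78.8% in double mutant and 5.19% and 2.91% in knockout MEP libraries (chr5:145306001-145307000, adjusted p = 1.74e-06).

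The promoter of Hdac1, a histone deacetylase, stood out among the 12 rises by its wild type level. It had 90.0%, 70.2% and 60.7% in double mutant and 0% in both knockout MEP libraries, while Idh2 mutant MEP had 3.51% and 10.1% and wild type MEP 62.0% and 68.8% (chr4:129219001-129220000, 4 CpGs, adjusted p = 0.000155). Its double mutant values rest on 40 to 57 reads. Among the called regions, 42 of the 4305 rises and 27 of the 740 falls shared this form. In it, double mutant and wild type MEP were both at least 20 points away from both single mutants on the same side. Of the 6 other rises, 1 was in Itga2b, described next. The others were in coding exons of Kcnk12, a background potassium channel (88.4% in double mutant cells, 13.2% in knockout MEP), of Tead1, a transcription factor of the Hippo pathway (83.4% in double mutant cells, 9.23% in knockout MEP), and Snx20, a sorting nexin of blood cells (87.6% in double mutant cells, 15.5% in knockout MEP). Introns of Hoxd11, a HOX gene of limb and trunk patterning, and of Tmie, a gene of inner ear hair cells, held 84.8% and 83.5% in double mutant cells and 12.2% and 10.99% in knockout MEP. Adjusted p over the 12 rises was at most 0.00148.

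Itga2b encodes CD41, the integrin alpha chain of platelets and megakaryocytes, and it held one of the 12 largest rises and the largest of the falls. A window in its coding exons (chr11:102317001-102318000, 5 CpGs) had 78.0%, 80.3% and 64.5% in double mutant and 2.45% and 0% in knockout MEP libraries. All 4 Idh2 mutant and wild type MEP libraries were also below 5% there, and the difference was 73.0 points (adjusted p = 1.29e-05). A window in an intron (chr11:102329001-102330000, 7 CpGs) had 19.6%, 11.46% and 6.83% in double mutant and 79.0% and 90.3% in knockout MEP libraries. Wild type MEP had 81.1% and 75% there, and the difference was -72.0 points (adjusted p = 1.52e-05). Of 2571 genes with a called region inside the gene, 99 had called regions in both directions.

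The other 11 falls started at 51.9% to 98.9% in knockout MEP, and double mutant cells held 2.48% to 39.5%. The window near Fgf6, a fibroblast growth factor of muscle, had 20.2%, 25.7% and 19.4% in double mutant and 97.1% and 86.6% in knockout MEP libraries (5033 bp from the start, adjusted p = 1.31e-05). A coding exon of Kalrn, which encodes kalirin, had 27.5%, 46.6% and 22.4% in double mutant and 100% and 97.8% in knockout MEP libraries (adjusted p = 0.000136). An intron of Fbxo31, which recruits substrates to a ubiquitin ligase, had 3.85%, 2.67% and 0.913% in double mutant and 66.0% and 66.7% in knockout MEP libraries (adjusted p = 8.92e-06). In each of these 3 windows both Idh2 mutant MEP libraries were at 82.7% or more. Windows in introns of Mapk4, an atypical MAP kinase (6.97% in double mutant cells, 69.4% in knockout MEP), and of Myof, the membrane repair protein myoferlin (12.01% in double mutant cells, 71.6% in knockout MEP), fell by 62.4 and 59.6 points (chr18:74160001-74161000 and chr19:37993001-37994000). A coding exon of the orphan receptor gene Gpr162 held 22.8% in double mutant cells and 78.3% in knockout MEP over 8 CpGs (chr6:124808001-124809000). A window 7082 bp from the start of Tnrc6a, which acts in silencing by microRNAs, held 8.37% in double mutant cells and 63.5% in knockout MEP (chr7:130260001-130261000). The coding exon window of C530008M17Rik held 18.9% in double mutant cells and 73.1% in knockout MEP, and an intron of Rap1gap2, a regulator of the GTPase Rap1 in platelets, held 34.3% in double mutant cells and 85.1% in knockout MEP. The adjusted p of these falls was at most 0.00311, and fitted to the 5 libraries alone it was 0.0672 for C530008M17Rik and 0.0551 for Rap1gap2. The remaining falls were in the lens crystallin gene Crybb3 and in Cd59a, an inhibitor of complement. Crybb3 held 3.10% in double mutant cells and 51.9% in knockout MEP (adjusted p = 0.00761), with an adjusted p of 0.0903 without knockout MEP replicate 1. For Cd59a the adjusted p was 0.0226, and, at 39.5% ± 11.9 (SD, n = 3) in double mutant cells and 85.0% ± 17.1 (SD, n = 2) in knockout MEP, it was 0.0513, 0.0625 and 0.107 without double mutant replicate 1, double mutant replicate 3 and knockout MEP replicate 1 (quasi-binomial model fitted across all regions).

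**Figure D3:**
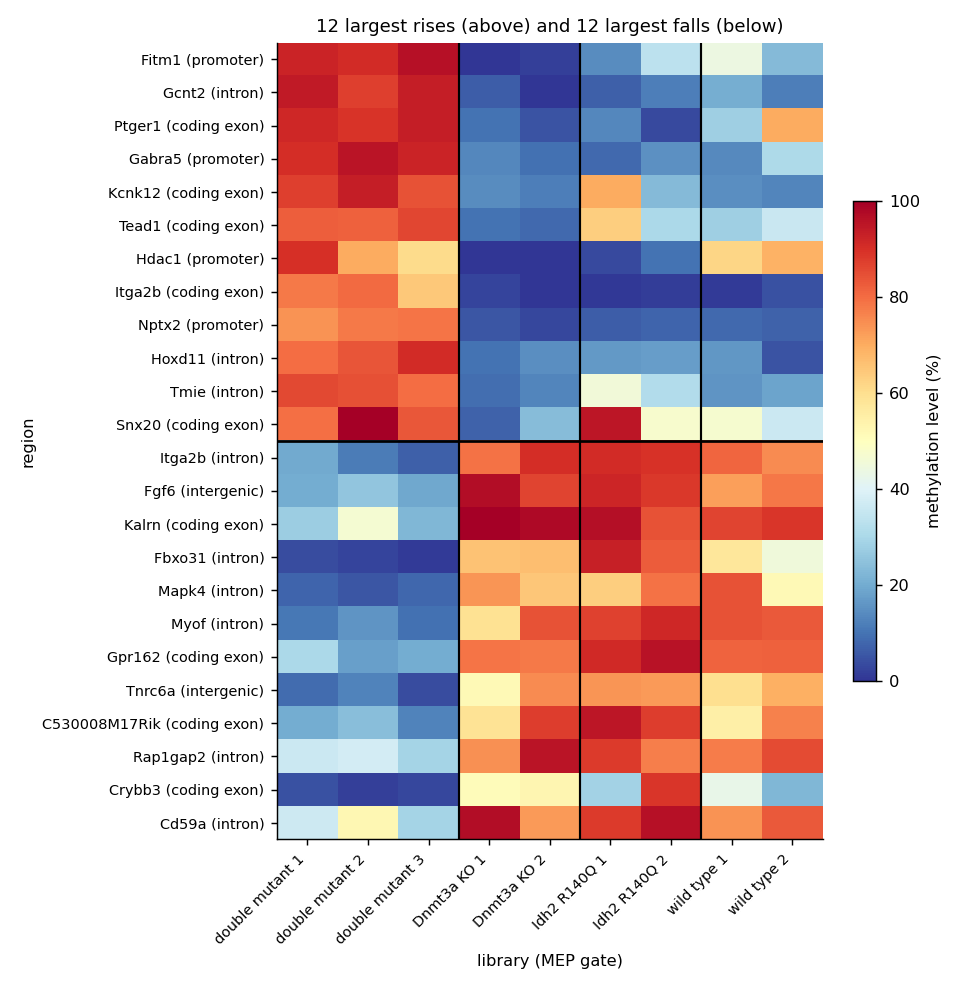
Methylation level in percent (colour) of the 12 regions with the largest rises and the 12 with the largest falls, labelled by gene and annotation, in each of the 9 libraries from the MEP gate. The 3 double mutant libraries lie outside the range of all 6 others in every window except those of Hdac1 and Snx20. The Hdac1 promoter is high in double mutant and wild type libraries.

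Rises were most frequent where wild type MEP had a little methylation. Of the 2898 regions at 5% to 20% in wild type MEP, 1179 rose (40.7%), with medians of 18.5% in double mutant cells and 7.02% in knockout MEP. Of the 15682 regions below 5%, 1731 rose (11.04%) and 10 fell. Of the 6344 regions at 20% to 80%, 1099 rose (17.3%) and 384 fell (6.05%), and of the 13704 regions above 80%, 296 rose and 306 fell. Within the regions below 5%, the risen share was 8.48% at promoters, 14.8% in introns, 19.12% between genes and 22.5% in coding exons. Among the 4305 risen regions, 1681 lay at promoters, 1126 between genes, 890 in introns and 426 in coding exons. Among the 740 fallen regions only 59 lay at promoters, and 316 lay between genes and 279 in introns. Risen regions had a median of 41 CpGs per kb and 56.0% GC, fallen regions 18 and 50%, and all regions 28 and 52.8%.

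Short motifs bound by factors of blood cells were counted on both strands of the 1 kb windows in mm9. Outside promoters, the motif AGATAA of GATA factors was present in 29.8% of risen, 36.9% of fallen and 33.7% of all regions. The Runx motif TGTGGT was present in 43.7% of risen, 57.9% of fallen and 49.7% of all, and the AP-1 motif TGAGTCA in 11.3% of risen, 18.4% of fallen and 14.1% of all. An ETS motif, CAGGAAG, was present in 34.2% of risen, 40.5% of fallen and 36.1% of all, and the E-box CACCTG in 58.5% of risen, 63.3% of fallen and 61.6% of all. The fallen regions thus held each of the 5 motifs at a higher share than all regions, and the risen regions at a lower share, and GC content moved with both sets.

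Of 12070 promoters, 1550 were called (12.8%), with 1498 risen (12.4%) and 52 fallen (0.431%) in double mutant cells. With limma 1239 rose (10.3%) and 18 fell (0.149%). The risen promoters had a median level of 29.1% in double mutant cells and of 3.98% in knockout MEP, and 1359 of the 1498 were below 20% in knockout MEP. The promoters of 15 gene lists were counted to see which groups of genes shared in this. The highest shares were those of genes that control the body plan: 15 of 28 HOX promoters rose (53.6%), and 56 of 111 promoters of other developmental transcription factors (50.5%), while none of either list was called lower. Uncalled differences reached -25.7 points for HOX and for stem and early progenitor promoters and -24.3 for megakaryocyte promoters. They reached -12.5 points for germline, -12.3 for granulocyte and macrophage and -10.8 for ribosomal protein promoters. None of the 15 lists had a promoter called lower by the quasi-binomial model, limma or edgeR, and at an unadjusted p under 0.05 the lists had 0 to 9 lower promoters each, with 1 for HOX and 0 for the other developmental factors. By contrast 1 of 67 ribosomal protein promoters rose (1.49%), and none of 21 promoters of the DNA methylation machinery or of 32 promoters of alpha-ketoglutarate-dependent dioxygenases. Of these, 52 ribosomal, 19 machinery and 31 dioxygenase promoters were below 5% in wild type MEP, where 7.998% of all promoters rose. Whether the shares of these lists lie below that was not tested. At an unadjusted p under 0.05 the machinery had 0 higher and 3 lower promoters and the dioxygenases 5 higher and 3 lower, and limma and edgeR also called none in either list.

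**Figure D4:**
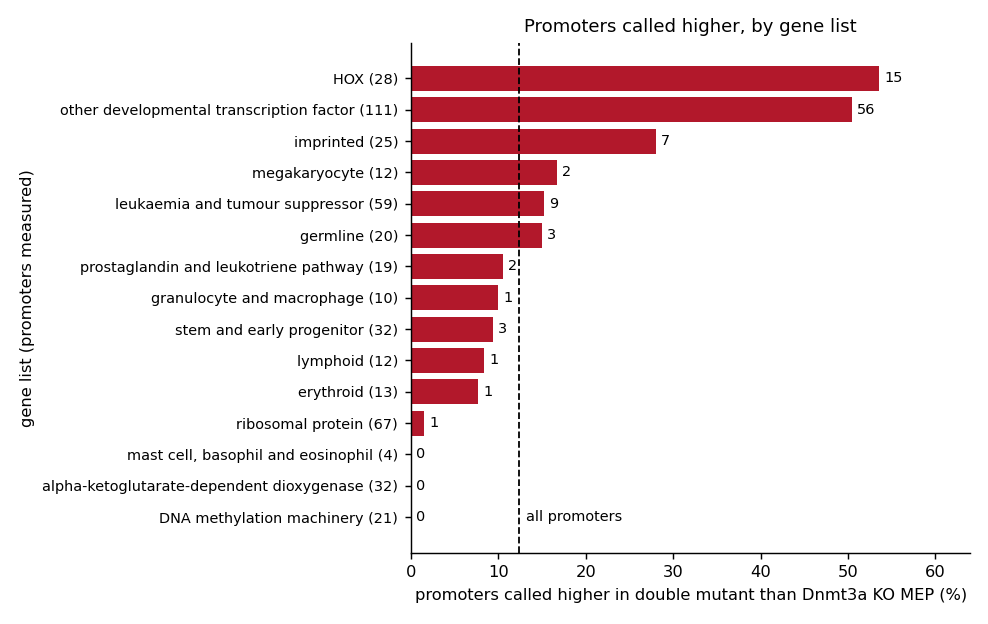
Percentage of measured promoters called higher in double mutant cells than in knockout MEP (horizontal) for 15 gene lists, with the number measured in parentheses and the number called beside each bar; the dashed line marks the 12.4% of all promoters. HOX and other developmental transcription factors stand at 53.6% and 50.5%, and methylation machinery, dioxygenases and mast cell, basophil and eosinophil genes at 0%.

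The 56 developmental promoters rose by 11.6 to 53.7 points, with a median of 21.9, and double mutant and knockout libraries did not overlap in any of the 56, as in 1496 of all 1498 risen promoters and in 40.5% of all promoters tested. That of Foxc2, a forkhead factor of mesoderm and lymphatic vessels, had 58.3%, 59.7% and 58.2% in double mutant and 5.77% and 4.17% in knockout MEP libraries (3 CpGs, adjusted p = 1.15e-05). Irx2, an Iroquois homeobox factor, had 49.7%, 61.3% and 43.5% in double mutant and 1.98% and 3.52% in knockout MEP libraries over 17 CpGs (adjusted p = 3.28e-06). Tbx18, a T-box factor of the heart and its covering layer, had 44.4%, 61.4% and 35.7% in double mutant and 2.13% and 0.735% in knockout MEP libraries (adjusted p = 7.41e-05). In each of the 3, knockout MEP was close to or below wild type MEP, which averaged 13.1%, 1.80% and 1.79% in this order. The level was above knockout MEP in 108 of all 111 promoters of the list, whether or not they passed.

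Among the HOX genes, which pattern the body axis, rises were seen in 6 of 7 promoters of the D cluster, 5 of 6 of the B cluster, 3 of 9 of the A cluster and 1 of 6 of the C cluster. The level was above knockout MEP in 26 of all 28 HOX promoters, and the lowest difference was -25.7 points, not called. Hoxa5, also on the list of stem and progenitor genes, had 93.6%, 96.2% and 98.8% in double mutant and 47.1% and 67.5% in knockout MEP libraries (chr6:52153846-52154822, 10 CpGs, adjusted p = 0.000418). It was also high in Idh2 mutant MEP (92.4%) and in wild type MEP (85.99%), and the knockout libraries were the low ones. Hoxb1 had 30.9%, 35.3% and 42.2% in double mutant and 9.04% and 5.14% in knockout MEP libraries (adjusted p = 0.00016), and Hoxd10 had 32.2%, 36.1% and 27.4% in double mutant and 4.53% and 8.32% in knockout MEP libraries (adjusted p = 0.000534). Hoxa4 was less even, with 24.2%, 46.9% and 27.8% in double mutant and 2.34% and 9.63% in knockout MEP libraries (adjusted p = 0.00384, and 0.0698 without knockout MEP replicate 1). Fitted to the 5 libraries alone, 6 of the 28 HOX promoters passed.

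The larger share of these genes was also seen among promoters of like starting level. Of HOX and other developmental promoters below 5% in wild type MEP, 39 of 94 rose (41.5%), against 792 of 9903 among all promoters at that level (7.998%). From 5% to 20% the counts were 29 of 37 (78.4%) for these genes and 479 of 1135 (42.2%) for all promoters. CpG density was not matched in this comparison.

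**Figure D5:**
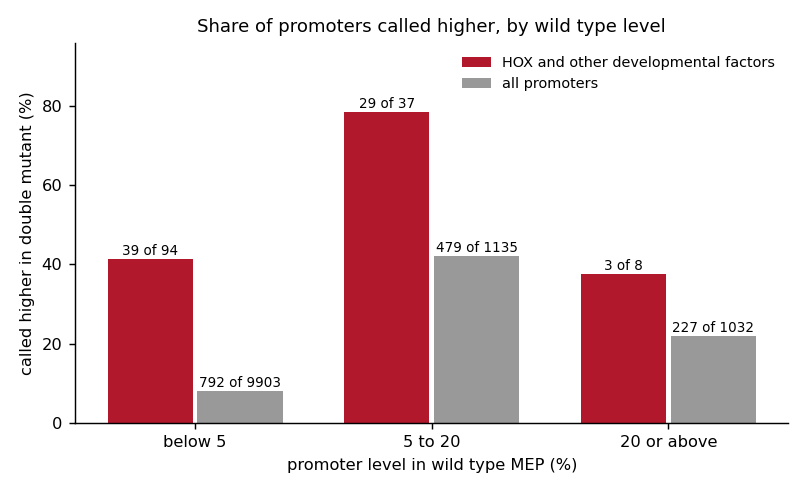
Percentage of promoters called higher in double mutant cells than in knockout MEP (vertical), grouped by their level in wild type MEP, for HOX and other developmental transcription factors and for all promoters; counts stand above the bars. The developmental genes have the higher share in each of the 3 groups, with 39 of 94 below 5%.

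Rises also came in runs along the chromosome. There were 164 runs of 3 or more called regions of 1 direction within 5 kb of each other with no measured uncalled region between them, and all 164 were rises. They held 558 of the 4305 risen regions. Rises made up 11.1% and falls 1.92% of all regions, with medians of 41 and 18 CpGs per kb. The number of runs that these shares alone would give was not tested. The longest, chosen after its values were seen, covered 7 regions and 54 CpGs at Nr2f2, an orphan nuclear receptor (chr7:77504001-77516000), with 32.7%, 45.4% and 33.6% in double mutant and 4.25% and 6.25% in knockout MEP libraries.

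Among 59 promoters of leukaemia genes and tumour suppressors, 9 rose (15.3%) and none fell, close to the 12.4% of all promoters. The largest was that of Wt1, a zinc finger factor altered in leukaemia, with 57.3%, 73.7% and 62.01% in double mutant and 3.32% and 8.96% in knockout MEP libraries (chr2:104966431-104967611, 15 CpGs, adjusted p = 6.88e-06). Sfrp1, a secreted Wnt antagonist, had 51.2%, 63.5% and 51.8% in double mutant and 6.25% and 2.60% in knockout MEP libraries over 19 CpGs (adjusted p = 2.61e-06). Id4, an inhibitor of helix-loop-helix factors, had 36.8%, 46.2% and 38.4% in double mutant and 1.62% and 1.75% in knockout MEP libraries over 28 CpGs (adjusted p = 1.57e-06). In these 3 promoters the groups were apart by more than the spread within either. Sfrp5, a relative of Sfrp1, held 39.8% ± 8.58 (SD, n = 3) in double mutant cells and 8.97% ± 10.7 (SD, n = 2) in knockout MEP over 3 CpGs. It did not pass with edgeR (adjusted p = 0.0777) or fitted to the 5 libraries alone (adjusted p = 0.132).

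Of 25 imprinted promoters 7 rose (28%) and none fell. Dio3, a deiodinase that inactivates thyroid hormone, had 57.2%, 67.1% and 69.2% in double mutant and 5.36% and 10.2% in knockout MEP libraries (adjusted p = 8.04e-06). Dlk1, a Notch-like ligand from the same imprinted domain, had 37.8%, 46.1% and 57.8% in double mutant and 0.446% and 0% in knockout MEP libraries (adjusted p = 7.72e-05). The promoters of Grb10, a growth-restraining adaptor, and of Rasgrf1, a Ras exchange factor, rose by 37.9 and 36.4 points. Grb10 differed by 13.7 points when only CpGs within 500 bp of the start were used, which did not pass (adjusted p = 0.355). Of 20 germline promoters, most of them highly methylated in all groups, 3 rose (15%, near the 12.4% of all promoters): Tdrd6 (42.6% in double mutant cells, 8.06% in knockout MEP), a gene of germ cell granules, and the meiotic cohesin genes Smc1b (91.0% in double mutant cells, 67.6% in knockout MEP) and Stag3 (20.3% in double mutant cells, 4.10% in knockout MEP). Stag3 did not pass with limma (adjusted p = 0.0548), and differed by 1.25 points at CpGs covered in all 15 libraries. With edgeR neither Smc1b (adjusted p = 0.0767) nor Stag3 (adjusted p = 0.133) passed. The same held when fitted to the 5 libraries alone (adjusted p = 0.0565 for Smc1b and 0.122 for Stag3).

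Promoters of the blood lineages rose in shares of 0% to 16.7%, on both sides of the 12.4% of all promoters. Risen were 3 of 32 stem and early progenitor promoters, 1 of 13 erythroid, 2 of 12 megakaryocyte, 1 of 10 granulocyte and macrophage, 0 of 4 mast cell, basophil and eosinophil and 1 of 12 lymphoid promoters. The mast cell, basophil and eosinophil list had 0 higher promoters at an unadjusted p under 0.05 and with limma and edgeR as well. Gfi1, a repressor of blood progenitors, had 17.8%, 19.2% and 25.2% in double mutant and 0.730% and 0.532% in knockout MEP libraries (adjusted p = 5.70e-05), but differed by 7.69 points, under the limit of 10, at CpGs outside CCGG. Nkx2-3, a homeobox factor, held 19.08% in double mutant cells and 4.28% in knockout MEP. It did not pass with edgeR (adjusted p = 0.0502) or in the 5 libraries alone (adjusted p = 0.0768). Ank1, which anchors the red cell membrane, had 23.6%, 24.8% and 19.3% in double mutant and 5.95% and 2.22% in knockout MEP libraries (adjusted p = 0.000333). Bcl11b, a factor of T cell commitment, had 23.2%, 29.3% and 16.9% in double mutant and 3.28% and 3.65% in knockout MEP libraries (adjusted p = 0.000132). Fcgr3, an Fc receptor of myeloid cells with close relatives in the genome, had 22.5%, 27.7% and 22.8% in double mutant and 8.75% and 8.50% in knockout MEP libraries over 38 CpGs (adjusted p = 3.71e-06). The 2 megakaryocyte rises were small. Pleckstrin (Plek) held 12.8% in double mutant cells and 1.79% in knockout MEP. The cytokine gene Thpo held 14.98% in double mutant cells and 4.44% in knockout MEP. Thpo did not pass with limma (adjusted p = 0.0712) or edgeR (adjusted p = 0.152). Nor did it pass at 20 reads (adjusted p = 0.267) or without double mutant replicate 2 (adjusted p = 0.0581). Plek did not pass with edgeR (adjusted p = 0.0766) or in the 5 libraries alone (adjusted p = 0.0691), and its difference was under 10 points outside CCGG (9.33), without double mutant replicate 1 (9.08) and without knockout MEP replicate 2 (9.65). Counted as regions inside or within 10 kb of the gene, 12 of 53 granulocyte and macrophage regions rose (22.6%), 8 of which lay around Fcgr3, and 5 of 72 erythroid regions (6.94%), against 11.1% of all regions.

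Of 19 promoters of the prostaglandin and leukotriene pathway 2 rose (10.5%), near the 12.4% of all promoters. Alox15, a lipoxygenase of leukocytes, had 36.4%, 20.5% and 37.5% in double mutant and 0% and 0.955% in knockout MEP libraries (adjusted p = 3.49e-05). Slco2a1, a prostaglandin transporter, had 10.3%, 19.5% and 38.8% in double mutant and 0% and 1.14% in knockout MEP libraries (adjusted p = 0.00397, and 0.0920 without knockout MEP replicate 1). Its double mutant libraries were far apart from each other. Neither Dnmt genes nor Tet genes nor other members of the methylation machinery had a region called by the quasi-binomial model, limma or edgeR among 72 tested inside or within 10 kb of them, of which 8 had an unadjusted p under 0.05. The single ribosomal rise, Rpl28 (15.2% in double mutant cells, 4.62% in knockout MEP, adjusted p = 0.0435), did not pass with limma (adjusted p = 0.126) or when any library other than knockout MEP replicate 2 was left out.

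The same mutation was then examined with Dnmt3a intact, as Idh2 mutant against wild type MEP, in libraries that the contrast above does not share. In these, 279 of the 38628 regions rose (0.722%) and 51 fell (0.132%), and 8 of 12070 promoters rose (0.0663%) and 1 fell (0.00829%). At the 4305 regions that rose in double mutant cells, the median level was 36.1% in double mutant cells and 5.82% in knockout MEP, against 8.92% in Idh2 mutant MEP and 7.52% in wild type MEP. Idh2 mutant MEP lay above wild type MEP in 60.1% of them and in 57.9% of all regions. At the 740 regions that fell in double mutant cells, the median was 58.3% in double mutant cells and 83.9% in knockout MEP, against 81.8% in Idh2 mutant MEP and 75.7% in wild type MEP. There Idh2 mutant MEP lay above wild type MEP in 73.4%, with a median difference of 4.73 points, opposite in direction to the double mutant. This share was larger than the 57.9% of all regions. Whether it was also larger than in other regions of like wild type level was not tested. Over all CpGs, Idh2 mutant minus wild type MEP was 5.49 points at those from 20% to 80% in wild type MEP and -0.429 points at those above 80%.

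Idh2 mutant MEP also lack Mx1-cre, which wild type MEP carry, and the double mutant cells are malignant, so a difference between the 2 contrasts cannot be assigned to the Idh2 and Dnmt3a genotypes alone. A direct test of the difference between the 2 contrasts was made on the logit scale in the model of all groups. At adjusted p under 0.05 and at least 10 points between the contrasts, it passed in 2306 regions (5.97%) and 804 promoters (6.66%). Of the regions, 1630 differed upward and 676 downward. By adjusted p alone the counts were 2484 regions and 967 promoters. With limma 1633 regions passed both limits. The 24 regions described above were chosen by the double mutant minus knockout difference, which enters this test, so their counts are a description. It passed in 22 of them, all but Kcnk12 and Snx20 (adjusted p = 0.134 and 0.135), where 1 Idh2 mutant MEP library stood at 70.3% and 95.0%. Wild type libraries hold a different share of X and Y reads from the rest (X reads at 2.21% and 2.25% of autosomal reads, against 1.27% and 1.29% in Idh2 mutant MEP), and the part of this in the difference was not tested.

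Lastly, regions were chosen in libraries outside the contrast. The 37 regions lower in knockout than in wild type granulocyte-macrophage progenitors (GMP), which held 35.0% in knockout GMP and 68.8% in wild type GMP, averaged 45.6%, 47.4% and 45.1% in double mutant cells and 40.4% and 44.7% in knockout MEP. The difference of 3.48 points had p = 0.1 (exact permutation test, the smallest possible), and both groups stayed below wild type MEP at 59.7%. Of these regions 8 rose (21.6%, against 11.1% of all regions) and 3 fell (8.11%, against 1.92%) in double mutant cells. With the regions chosen again, the difference was 0.355 points without knockout MEP replicate 1, 1.68 without double mutant replicate 1 and 8.73 without knockout MEP replicate 2, over 36, 19 and 36 regions in this order. Without wild type GMP replicate 1 and without knockout GMP replicate 2 only 1 region qualified in each case, with differences of 8.66 and 25.3 points. The 31 regions higher in knockout GMP averaged 75.2% in double mutant cells and 74.9% in knockout MEP (p = 0.9, exact permutation test), and 2 of them rose (6.45%) and 7 fell (22.6%).

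Methylation gave only a narrow check of the MEP label, and marker RNA was not analysed here. The 21 regions higher in wild type MEP than in wild type GMP averaged 75.2% ± 1.12 (SD, n = 3) in double mutant cells and 69.7% ± 4.16 (SD, n = 2) in knockout MEP, nearer to wild type MEP (57.5%) than to wild type GMP (22.1%). Knockout GMP (55.5%) and Idh2 mutant GMP (47.7%) were also nearer to wild type MEP at these regions, so such nearness cannot check the MEP label. The 4 regions lower in wild type MEP averaged 94.0% ± 1.55 in double mutant cells and 81.0% ± 1.67 in knockout MEP, nearer to wild type GMP (92.2%) than to wild type MEP (63.8%). With the regions chosen again without double mutant replicate 2, that difference was -6.79 points over 2 regions. As single libraries were left out, the difference at regions higher in wild type MEP ranged over 2.19 points, over 12 regions without knockout MEP replicate 1, to 23.1 points, where 1 region qualified. The few lineage regions gave no single answer for either group.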

How the data were processed

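Reduced representation bisulfite libraries were aligned to mm9 with BSMAP 2.74, per the submitters' processing notes. For trimming, duplicate removal and conversion the processing is not given in the sources used here. The deposited files list each cytosine with a fraction of methylated reads and the counts of methylated and total reads behind it, all made by the authors; only the deposited counts were used, and no stored count exceeds 65535. Counts of both strands of a CpG were summed, autosomal CpGs reaching 10 reads in every library of the contrast were kept, and all 325489 fell on CG in the mm9 genome. Gene models were those of GENCODE for the same build. PCR reads without molecular identifiers are not independent molecules.

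The test was a quasi-binomial logistic model with 1 term for each of the 7 groups, fitted per region or promoter to all 15 libraries (8 residual degrees of freedom). Its dispersion was squeezed towards a common value by an empirical Bayes step written in Python, and kept at 1 or more, and p-values were adjusted by the Benjamini-Hochberg method over all regions or all promoters. Group values are means of library levels, with their SD. Library means were compared by exact two-sided permutation tests. Alternatives were limma 3.58.1 on the log2 ratio of methylated to unmethylated reads with a pseudocount of 1, edgeR 4.0.16, higher read and difference limits, other sets of libraries, each library left out, a replicate block, and CpGs outside CCGG, the last chosen after seeing the data. The model was tested on simulated data before use. Python 3.11.15 and R 4.3.3 were used.

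Regions named in the text were the 12 largest rises and 12 largest falls among called regions without overlap between groups, with at least 4 CpGs, inside a gene or within 10 kb of its start, at most 1 per gene in each direction. From each gene list at most 4 called promoters, those with the largest differences, were described in full, and 1 of these promoters is not reported here. The comparison, the gene lists and these rules were chosen with earlier results of these data known.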

Additional observations from a re-analysis of the deposited data

Results flagged for a closer look

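The double mutant minus knockout difference was set against the Idh2 mutant minus wild type difference in a test of the difference between them (quasi-binomial model, adjusted over all regions or promoters), which passed in 22 named regions and 15 named promoters. They were chosen for a large double mutant minus knockout difference, a term of this test, so passing was largely fixed by the choice and the sizes are a description. The malignant state and the presence of Mx1-cre also differ along these contrasts and cannot be told apart from the genotypes. The double mutant minus knockout difference exceeded the Idh2 mutant minus wild type difference, in points, by 132.2 at Hdac1, 125.0 at Ptger1, 102.2 at Fitm1, 95.2 at Gcnt2, 91.7 at Gabra5, 74.8 at the Itga2b coding exons, 73.8 at Nptx2, 65.9 at Hoxd11, 59.2 at Tead1 and 51.2 at Tmie. At the falls it was -100.4 points at Fbxo31, -84.9 at Fgf6, -84.1 at the Itga2b intron, -79.7 at C530008M17Rik, -74.8 at Crybb3, -69.4 at Kalrn, -67.7 at Gpr162, -65.8 at Mapk4, -65.3 at Myof, -63.9 at Tnrc6a, -59.0 at Cd59a and -52.1 at Rap1gap2. At promoters it was 58.8 points at Dio3, 54.1 at Foxc2, 53.0 at Wt1, 49.4 at Sfrp1, 47.0 at Irx2, 44.2 at Grb10, 39.9 at Id4, 38.7 at Hoxa4, 32.2 at Tdrd6, 25.3 at Hoxd10, 21.1 at Gfi1, 20.9 at Bcl11b, 19.6 at Rpl28, 18.5 at Ank1 and 12.9 at Fcgr3.

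On the X chromosome, which the comparison leaves out, 4832 CpGs averaged 50.04%, 50.6% and 49.9% in double mutant cells and 46.5% and 48.1% in knockout MEP. The difference of 2.88 points had p = 0.1 (exact permutation test, the smallest possible).

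Read depth by chromosome also varied between libraries. Double mutant replicate 2 had a median depth ratio of 1.06 on chromosome 19, set against the other double mutant libraries, and values of 1.05 to 1.06 on chromosomes 1, 7, 11, 14, 15 and 18. Knockout MEP replicate 2 had 1.12 on chromosome 10, set against replicate 1. The part of this in the methylation differences was not tested.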

How the results depend on the processing

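None of the differences at the 24 named regions and 28 named promoters changed sign in 649 checks over 14 settings, and 544 checks kept the call. Of the 105 that lost it, 52 were under the replicate block. The sign could not change with limma, edgeR, the replicate block or the fits to fewer groups, which reuse the same difference. Leaving out a library could not change the sign either, since the groups did not overlap at these regions and promoters. In those settings only the call was checked.

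Regions called numbered 3056 (2677 higher, 379 lower) at 20 reads, 2284 (2033 and 251) at 25 points, 2410 (2192 and 218) in the 5 libraries alone and 2169 (2018 and 151) outside CCGG, where 17663 were tested, and edgeR called 392 lower. Promoters called numbered 678 (666 higher, 12 lower) at 25 points, 1005 (998 and 7) with edgeR, 994 (973 and 21) in the 5 libraries alone and 1024 outside CCGG, and lower promoters 20 at 20 reads, 18 with limma, 18 outside CCGG and 32 within 500 bp. Risen list promoters numbered 19 (other developmental), 4 (HOX) and 4 (leukaemia) at 25 points, 6 (HOX) and 5 (leukaemia) in the 5 libraries alone, 5 (leukaemia) with edgeR, 1 (megakaryocyte) and 0 (ribosomal) with limma and 4 (imprinted) within 500 bp. The test of the difference between the contrasts with and without Dnmt3a passed in 1633 regions with limma, counted with a difference of at least 10 points. The mean level differed by 9.70 points weighted by reads.

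With replicate number as a block, 0 regions and 0 promoters passed, and 0 HOX, developmental, imprinted and leukaemia promoters, with 1 residual degree of freedom. At an unadjusted p under 0.05 there were 5922 regions and 2155 promoters. The deviations of same-numbered libraries from their group means had correlations of -0.00264 and 0.0366. With 2 knockout libraries these deviations are mirror images of each other. The correlations therefore cannot decide whether same-numbered libraries belong together.

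With each library left out in turn, regions ranged over 2959 to 4669 (2540 to 4165 higher, 419 to 658 lower), promoters over 1147 to 1525 (1091 to 1490 higher, 35 to 56 lower), HOX promoters over 11 to 15, other developmental over 48 to 58, imprinted over 5 to 8 and leukaemia over 6 to 9. The mean level difference ranged over 2.55 to 4.09 points, that of introns over 1.87 to 4.29, of intergenic CpGs over 1.67 to 4.01, of CpGs below 20% over 3.85 to 4.37, from 20% to 80% over 2.69 to 8.78 and above 80% over 0.130 to 1.86. Differences at regions lower in knockout GMP ranged over 0.355 to 25.3 points and at those higher in it over -12.97 to 3.79, at lineage regions lower in wild type MEP over -6.79 to 17.7 and at those higher over 2.19 to 23.1, partly because the regions were chosen again each time, with as few as 1 left.

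Group sizes of 3 and 2 cannot pass 0.05 in a permutation test of single values. The median number of reads that a region had in a single library was 195, taken over the regions and the 5 libraries.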
